A study of Drosophila melanogaster with 6 samples.

Results

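The cytosolic ribosomal protein genes of Drosophila melanogaster were examined in heads of paraquat-fed and control males. They were taken as every gene of the expression table whose symbol begins with RpL or RpS followed by a number, together with the stalk genes RpLP0, RpLP1 and RpLP2, and the mitochondrial mRp genes were left out. This rule, which uses names and no measured value, found 84 of the 14604 genes in the table. Of these, 46 encode proteins of the large subunit, 3 encode the stalk of the large subunit and 35 encode proteins of the small subunit.

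Every cytosolic ribosome is built from a large and a small subunit, each made of ribosomal RNA and a set of proteins that are mostly present once per particle. The small subunit reads the messenger RNA, the large subunit joins amino acids, and the stalk recruits the elongation factors. Because the proteins are needed in equal numbers, their genes are known for high and matched expression in all tissues, and in flies the loss of a single copy of many of them gives the Minute phenotype of slow growth and short bristles.

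Both groups were wild type males of the strain Canton S, 3 to 5 days old after eclosion, and RNA came from whole heads. The PQ group, measured in 3 libraries, received paraquat (PQ), a herbicide that generates reactive oxygen species, at 5 mM in a 2.5% sucrose solution. The control group, also measured in 3 libraries, received the 2.5% sucrose solution alone, and feeding lasted 12 h in both. The comparison addressed which genes respond early to PQ, before movement is impaired. Heads of many males were pooled for each extraction. The study's methods call the replicates independent biological samples and describe more per feeding than the libraries analysed here, whereas the labels only number them. The p-values measure the spread between these libraries.

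Levels are RPKM (reads scaled to transcript length and to library size), so genes of different length can be set side by side. No value in the table was below 1, which was read as a floor, and 4751 genes lay at that floor in all 6 libraries. Read counts per gene were not used here. The study's supplement lists reads per library, but the number of reads behind a single value was not worked out. The head origin was visible in its markers. The photoreceptor rhodopsin ninaE lay at 7243 to 7864 RPKM in PQ libraries and 7129 to 7961 RPKM in sucrose libraries. All 4 neuronal markers were above the floor, and 6 of 6 testis markers were at the floor throughout. The 2 ovary markers were at the floor too, which in males says little about head origin. Of 4 gut markers, 1 was above the floor, Mal-A1 at 5.0 to 7.0 RPKM over the 6 libraries. In whole heads, fewer cells of a type and less RNA per cell cannot be told apart.

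The ribosomal protein genes were among the most abundant transcripts of the head. Of the 84 genes, 77 were above the floor in every library, 6 were at the floor in every library, and RpS10a was above it in a single library. Mean RPKM over the 6 libraries ran from 27.4 for RpS15Ab to 1130.0 for RpL5, with a median of 607 and quartiles of 519 and 720. Within 1.5-fold of that median lay 67 of the 77 genes, and 73 lay within 2-fold. The subunits were alike in level, with a median of 602 RPKM for 43 large subunit genes, 617 RPKM for 3 stalk genes and 610 RPKM for 31 small subunit genes. In every library 76 of these genes exceeded 100 RPKM, and they made up 9.67% of the 786 genes of the table that did so. The summed RPKM of all 84 genes was 9.97%, 9.76% and 10.04% of the table's total in the PQ libraries, against 9.93%, 10.8% and 9.59% in the sucrose libraries. The share averaged 9.92% ± 0.147 in PQ and 10.1% ± 0.615 in sucrose (SD, n = 3 each), and the sucrose libraries held both the highest and the lowest share.

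**Figure D1:**
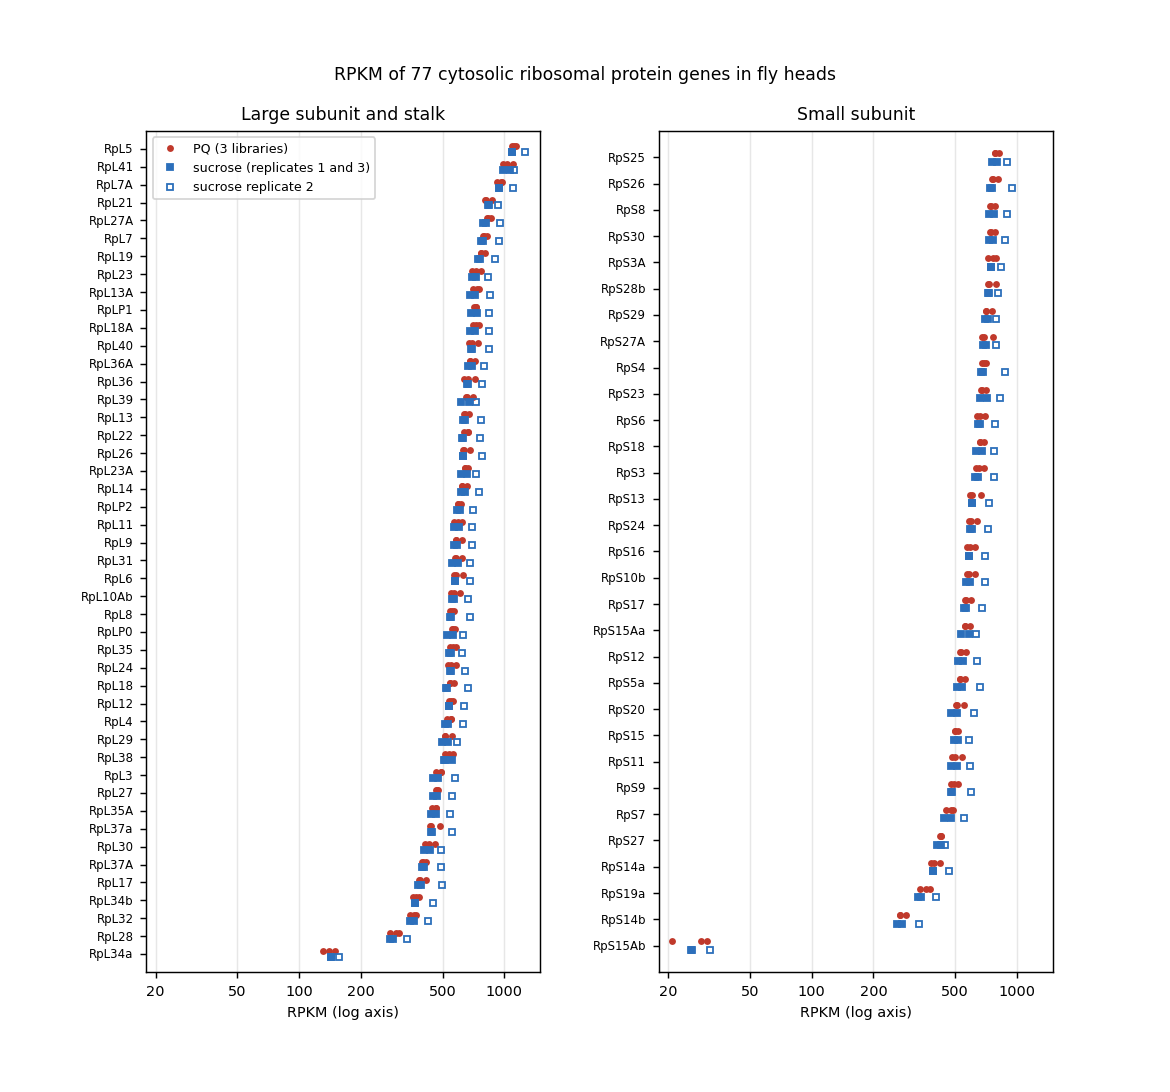
RPKM of the 77 genes above the floor, on a log axis, with a point per library: circles are the 3 PQ libraries and squares the 3 sucrose libraries, with sucrose replicate 2 as an open square. The quartiles of the gene means are 519 and 720 RPKM, PQ and sucrose points overlap for every gene, and the open square is usually farthest to the right.

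At the top of the order, RpL5 had 1120.3, 1088.4 and 1136.5 RPKM in PQ libraries, against 1093.2, 1256.3 and 1085.4 RPKM in sucrose libraries. RpL5 binds the 5S ribosomal RNA and brings it into the large subunit, and its PQ values lay inside the sucrose range. Its partner in that complex, RpL11, was at about the middle of the set, with 593, 567 and 621 RPKM in PQ and 598, 696 and 569 RPKM in sucrose. RpL41, which encodes a very short protein, followed RpL5 with 982, 1027 and 1099 RPKM in PQ and 1068, 1111 and 984 RPKM in sucrose. For both genes sucrose replicate 2 was the highest library and the groups overlapped. RpL7A (954 ± 25.7 in PQ and 996 ± 94.2 in sucrose), RpL21 (833 ± 36.8 in PQ and 869 ± 54.9 in sucrose) and RpL27A (841 ± 20.1 in PQ and 853 ± 91.0 in sucrose) completed the 5 highest (mean RPKM ± SD, n = 3 each). The ranges of neighbours in this order overlapped over the 6 libraries. At the low end of the expressed genes, RpL28 averaged 293 ± 15.9 RPKM in PQ and 301 ± 31.9 RPKM in sucrose, and RpS19a averaged 359 ± 21.6 RPKM in PQ and 359 ± 40.3 RPKM in sucrose. The remaining low genes, RpS14b, RpL34a and RpS15Ab, are the lower copies of paralog pairs and are described with them.

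No ribosomal protein gene passed the test for a difference between PQ and sucrose. Across all 9853 genes above the floor in at least 1 library, limma on log2(RPKM + 0.5) called 8 genes at an adjusted p under 0.05, all higher in PQ, which is 0.0812% of those tested. Of the 78 ribosomal protein genes in that fit, 0 were called in either direction, 0 had an unadjusted p under 0.05, and the smallest adjusted p was 0.951 (limma, Benjamini-Hochberg over all tested genes). Among all tested genes, 2.21% were higher and 1.67% were lower at an unadjusted p under 0.05. In no ribosomal protein gene did the 3 PQ libraries lie entirely above or entirely below the 3 sucrose libraries, while 3.11% of all tested genes lay entirely above and 4.47% entirely below.

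The estimated differences were small and their intervals bounded them closely. The log2 fold change of PQ over sucrose ranged from -0.11 for RpS23 to 0.03 for RpL38 over the 77 genes above the floor in every library, on the scale of RPKM + 0.5. The median over the 78 tested genes was -0.05, beside -0.02 over all tested genes. By subunit the median was -0.05 for the large subunit, -0.07 for the stalk and -0.06 for the small subunit. The 95% intervals of the 77 genes reached from -0.45 to 0.32 at their extremes, both for RpS15Ab, so that each interval lay inside a 1.5-fold difference in either direction. Such an interval was reached by 88.0% of all tested genes. The median standard error was 0.099 on the log2 scale for ribosomal protein genes and 0.10 for all tested genes.

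**Figure D2:**
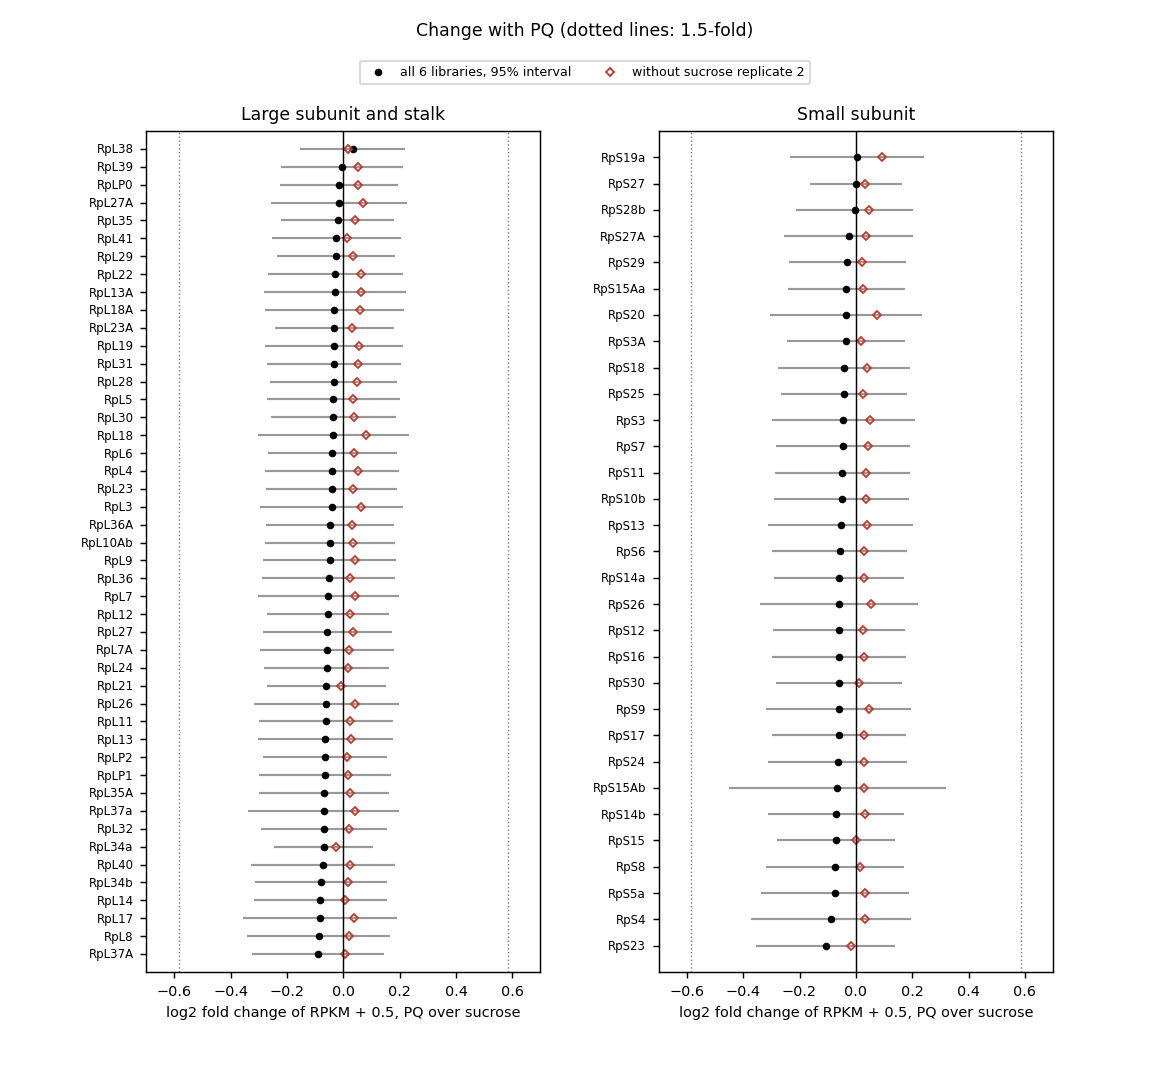
Log2 fold change of RPKM + 0.5, PQ over sucrose, for the 77 genes: black points with grey 95% intervals come from all 6 libraries, and red diamonds from the fit without sucrose replicate 2. All intervals include 0 and lie between the dotted lines at 1.5-fold, and nearly all red diamonds lie to the right of 0.

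The sign of most of these small differences depended on a single control library, and the balance of signs also changed with the normalization. With all 6 libraries, 74 of 78 genes had a negative log2 fold change (57.8% of all tested genes did), but without sucrose replicate 2 only 3 were negative, 75 were positive and the median became 0.03. Sucrose replicate 2 held the highest of the 6 values in 76 of the 78 genes, against 33.5% of all tested genes. The exceptions were RpL38, highest in PQ replicate 3, and RpS10a. Among the PQ libraries, replicate 3 was the highest for 73 genes. On the log2 scale the median deviation of the 78 genes from their own means was -0.05, -0.05 and 0.03 in PQ replicates 1, 2 and 3, against -0.04, 0.20 and -0.08 in sucrose replicates 1, 2 and 3. The 5 lowest fold changes, those of RpS23, RpL37A, RpS4, RpL8 and RpL17, followed this pattern. RpS23, a protein of the decoding centre, had 674, 666 and 709 RPKM in PQ, against 719, 831 and 665 RPKM in sucrose (log2 fold change -0.11, SE 0.10, limma adjusted p = 0.951). RpS4 of the small subunit had 695, 677 and 711 RPKM in PQ, against 687, 872 and 670.1 RPKM in sucrose. In both genes the groups overlapped and sucrose replicate 2 was the highest library, and sucrose replicates 1 and 2 of RpS23 lay above all its PQ libraries.

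RpL8, which lies at the peptidyl transferase centre, had 554, 546 and 568 RPKM in PQ, against 545, 684 and 553 RPKM in sucrose. RpL17, a protein at the polypeptide exit tunnel, had 382, 389.8 and 415 RPKM in PQ, against 379, 495 and 391.6 RPKM in sucrose. RpL37A had 400.2, 398 and 413 RPKM in PQ, against 405, 492 and 399 RPKM in sucrose. In each of them sucrose replicate 2 stood above all other libraries, while sucrose replicates 1 and 3 lay among or next to the PQ values. Without sucrose replicate 2 the log2 fold changes of these genes were 0.02 for RpL8, 0.04 for RpL17, 0.01 for RpL37A, 0.03 for RpS4 and -0.02 for RpS23, so that only RpS23 of the 5 kept its sign. RpL14 and RpL34a also stood among the genes of smallest unadjusted p in the negative direction, with log2 fold changes of -0.08 and -0.07 (limma adjusted p = 0.951 for each). RpL38, a large subunit protein whose loss in mouse alters body patterning, went the other way, with 514, 535 and 562 RPKM in PQ and 558, 513 and 506 RPKM in sucrose. Its highest value was in PQ replicate 3 and its groups overlapped (log2 fold change 0.03, SE 0.08, limma adjusted p = 0.960). RpS27 and RpS19a had log2 fold changes of 0.00, and RpS27 was the steadiest gene of the set, averaging 427 ± 2.48 RPKM in PQ and 427 ± 19.3 RPKM in sucrose (SD, n = 3 each).

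**Figure D3:**
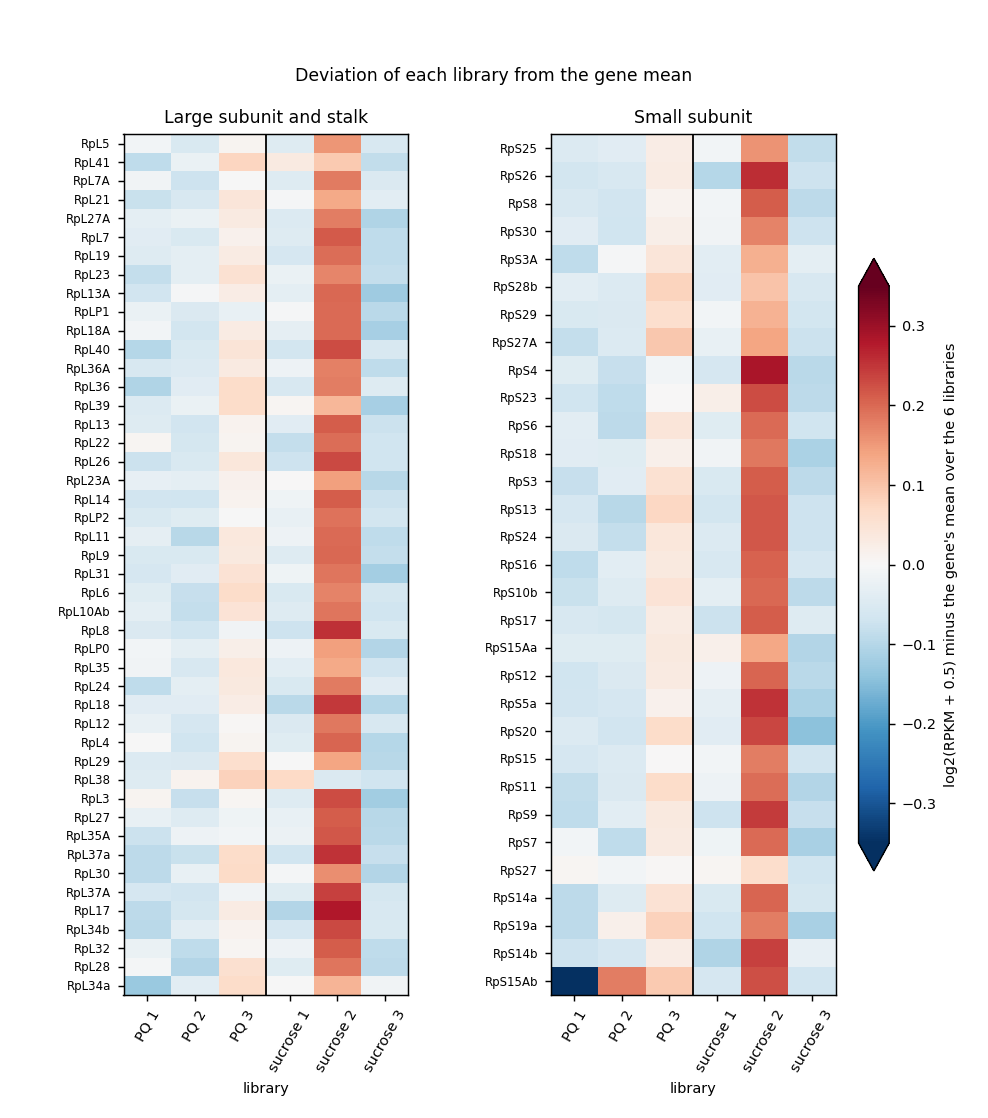
Deviation of each library from the gene's own mean over the 6 libraries, on the log2(RPKM + 0.5) scale, with a row per gene ordered by mean level and PQ libraries left of the black line. The column of sucrose replicate 2 is red in nearly every row of both subunits, PQ replicate 3 is faintly red and sucrose replicate 3 is blue, while RpL38 and RpS15Ab break the pattern.

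The genes moved together between libraries. Over the 6 libraries, the median pairwise Pearson r of the log2 deviations among the 77 genes was 0.94, with a lower quartile of 0.89. Among 812 other genes with a mean of at least 100 RPKM it was 0.19, and all these correlations share the same 6 libraries. The other genes were chosen by level and not matched for transcript length, which the deviations also followed. No such r was computed for the mitochondrial ribosomal protein genes. Relative to the median ribosomal protein gene of each library, the log2 fold changes of the 77 genes ran from -0.06 to 0.08, and 73 were within 0.05 of it.

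Over all tested genes the deviations followed transcript length, most strongly in sucrose replicate 2. The 78 tested genes had a median spliced length of 805 bases, against 2012.5 bases for all tested protein-coding genes. Of the 78 genes, 66.7% were under 1000 bases, against 16.1% of all tested protein-coding genes. These lengths come from a later annotation than the RPKM. For some genes they exceed the whole dm3 gene span, as for RpL5 (3835 against 1887 bases) and RpS26 (1812 against 740 bases). In sucrose replicate 2 the median deviation of other genes was 0.14 for those up to 1000 bases, 0.10 for those of 1000 to 2000 bases, 0.02 for those of 2000 to 4000 bases and -0.13 for longer ones. Over all tested genes the Spearman correlation of that library's deviation with length was -0.47, while over the 78 ribosomal protein genes it was 0.26. In the other libraries, over all tested genes, it was 0.36, 0.23 and -0.29 in PQ replicates 1, 2 and 3. It was 0.29 and 0.05 in sucrose replicates 1 and 3. Each library was then adjusted for spliced length. The median deviation of the ribosomal protein genes became 0.04, -0.01 and -0.02 in PQ replicates 1, 2 and 3. In sucrose replicates 1, 2 and 3 it became 0.01, 0.07 and -0.09, so that sucrose replicate 3 lay farthest from the gene means. The median log2 fold change was 0.00 after this adjustment, and 43 genes were positive and 35 negative. Most markers of neurons and photoreceptors were also at an extreme in sucrose replicate 2. The summed RPKM of the neuronal markers was 801 to 931 in PQ libraries and 738 to 914 in sucrose libraries, with the lowest sum in sucrose replicate 2, where elav (15.99 RPKM, against 23.9 to 35.2 in the other libraries), brp (29.3 RPKM) and Syt1 (219.6 RPKM) were lowest. The fourth, n-syb, was lowest in PQ replicate 3 (464 RPKM, against 473 RPKM in sucrose replicate 2), and none of the 4 was at the floor. The 5 photoreceptor markers summed to 9839 to 10494 RPKM in PQ libraries and 9975 to 10905 RPKM in sucrose libraries, with the highest sum in sucrose replicate 2. There ninaE, ninaC, trp and inaD were at their highest of the 6 libraries, but norpA was not, and none of the 5 was at the floor. In sucrose replicate 2 the summed RPKM of glial (724), muscle (724), fat body (533) and hemocyte (45.2) markers lay within the other libraries' range. Single markers behind these sums were at an extreme there too. Eaat1 (169 RPKM), moody (20.1), bt (23.7), Rfabg (182) and Hml (1.51) were at their lowest, and Act88F (4.70) and Pxn (41.6) at their highest. In contrast, repo, Gs2, Mhc, up and Lsp2 were not at an extreme, and He and nimC1 were at the floor. The fat body sum rested on 2 of 4 markers, the others being at the floor. The part of cell type content in the ribosomal protein values was not tested.

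**Figure D4:**
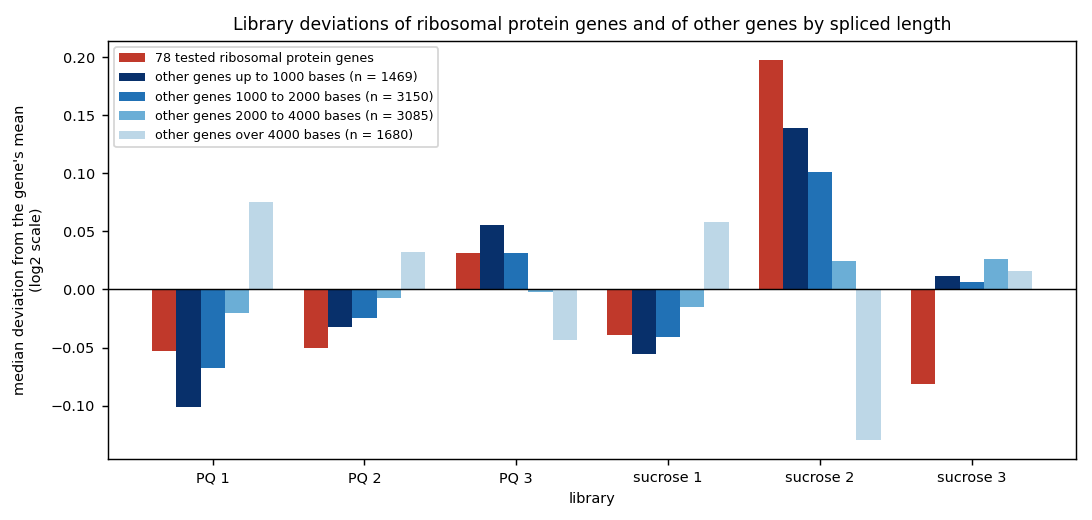
Median deviation from the gene's own mean in each library, on the log2 scale, for the 78 tested ribosomal protein genes (red) and for other genes in 4 classes of spliced length (blue, darker for shorter). In sucrose replicate 2 the bars fall from 0.20 for ribosomal protein genes and 0.14 for the shortest other genes to -0.13 for the longest.

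The members with roles beyond the ribosome core, or with special use in fly work, behaved like the rest. The stalk genes, whose proteins contact elongation factors, averaged 564 ± 11.1 RPKM in PQ and 571 ± 50.5 RPKM in sucrose for RpLP0, 721 ± 7.44 in PQ and 758 ± 80.0 in sucrose for RpLP1, and 602 ± 11.5 in PQ and 632 ± 61.3 in sucrose for RpLP2 (SD, n = 3 each). Their log2 fold changes were -0.02, -0.07 and -0.07, and PQ values lay within the sucrose range for all 3 genes. RpS27A and RpL40 encode ribosomal proteins fused to ubiquitin and are therefore a source of that protein as well. RpS27A had 679, 694 and 766 RPKM in PQ, against 706, 791 and 682 RPKM in sucrose. RpL40 had 673, 695 and 744 RPKM in PQ, against 691, 845 and 694 RPKM in sucrose. Their groups overlapped, with log2 fold changes of -0.03 for RpS27A and -0.07 for RpL40.

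RpS6, the substrate of the TOR-dependent S6 kinase, had 665, 641 and 703 RPKM in PQ and 663, 784 and 649.8 RPKM in sucrose. RpS3, a protein near the messenger RNA entry site, had 633, 651 and 694 RPKM in PQ and 644, 776 and 628 RPKM in sucrose. RpS12, which in flies is required for the competitive elimination of cells short of ribosomal proteins, had 528, 536 and 566 RPKM in PQ and 547, 638 and 519 RPKM in sucrose. For RpS6, RpS3 and RpS12 sucrose replicate 2 was again the highest library and the log2 fold changes were -0.06, -0.04 and -0.06. RpL32, known as rp49 and widely used to normalise quantitative PCR in flies, had 362, 346 and 369 RPKM in PQ and 363, 425 and 346 RPKM in sucrose. The groups overlapped, and its log2 fold change was -0.07 with a 95% interval from -0.29 to 0.15 (limma adjusted p = 0.951).

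Flies carry a second copy of several ribosomal protein genes, and in the head the copies were used unequally. In 6 of 10 pairs among the genes studied, the lower copy was at the floor in all 6 libraries: RpS5b, RpS19b, RpS28a, RpL10Aa, RpL22-like and RpL37b. At the floor of 1 RPKM these copies could account for at most 0.301% of the RPKM of their pair. RpS5b, RpS19b and RpL22-like are known from the germ line, whose markers were also at the floor here. RpL22, the expressed partner of RpL22-like, had 665, 634 and 666 RPKM in PQ and 624, 758 and 629.8 RPKM in sucrose. RpS10a, another gene known from the germ line, was listed at 1.61 RPKM in PQ replicate 1 and at the floor in the other 5 libraries, while its partner RpS10b averaged 595 ± 27.2 RPKM in PQ and 618 ± 68.1 RPKM in sucrose. The log2 fold change of RpS10a, 0.16, rests on that single value. The expressed partners of the other silent copies were RpS5a (539 ± 17.0 RPKM in PQ and 571 ± 78.1 in sucrose), RpS19a, RpS28b (751 ± 37.1 in PQ and 753 ± 45.2 in sucrose), RpL10Ab (576 ± 26.9 in PQ and 597 ± 60.5 in sucrose) and RpL37a (454 ± 27.6 in PQ and 479 ± 65.4 in sucrose).

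In 3 pairs both copies were expressed. RpS14b took 41.3%, 40.7% and 40.6% of the summed RPKM of RpS14a and RpS14b in PQ libraries, against 40.1%, 41.6% and 41.5% in sucrose libraries. RpS14a (X, 7827779 to 7828712, dm3) and RpS14b (X, 7828937 to 7829832) lie in tandem on the plus strand with 224 bases between them. RpL34a took 26.8%, 27.3% and 28.0% of its pair with RpL34b in PQ, against 28.1%, 25.8% and 27.9% in sucrose. RpS15Ab, a gene with a single exon, took 3.61%, 5.23% and 4.69% of its pair with RpS15Aa in PQ, against 4.28%, 4.80% and 4.62% in sucrose. PQ and sucrose shares overlapped in all 3 pairs. RpS15Ab itself had 20.9, 30.8 and 29.0 RPKM in PQ and 26.1, 31.9 and 25.9 RPKM in sucrose, and it had the widest spread of the 77 genes. Paired reads of 50 bases can match both copies where the copies are alike, and how such reads were counted is not given in the sources used here, so the split within a pair is uncertain.

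The related genes RpL24-like, RpLP0-like and RpL7-like carry CG symbols in the table and so were not selected by name. RpL24-like, a protein of large subunit assembly, averaged 148 ± 8.76 RPKM in PQ and 160.0 ± 22.4 RPKM in sucrose, beside 554 ± 24.0 in PQ and 578 ± 54.6 in sucrose for RpL24. RpLP0-like averaged 11.7 ± 0.427 RPKM in PQ and 12.5 ± 2.18 in sucrose, and RpL7-like averaged 11.1 ± 1.27 in PQ and 11.7 ± 2.10 in sucrose (SD, n = 3 each). These levels were a small share of those of RpLP0 and RpL7.

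**Figure D5:**
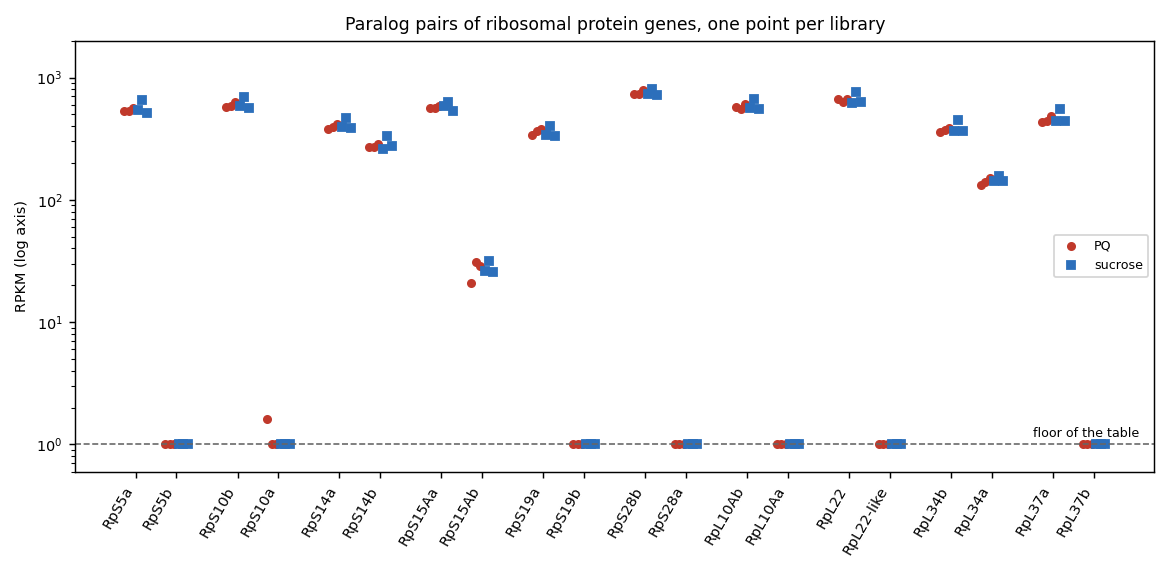
RPKM on a log axis for both copies of 10 paralog pairs, the higher copy on the left of each pair, with red circles for the 3 PQ libraries and blue squares for the 3 sucrose libraries. Of the lower copies, 6 lie on the dashed floor of 1 RPKM in every library, RpS10a leaves it in PQ replicate 1, and RpS14b, RpL34a and RpS15Ab are expressed.

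The genes are scattered over the genome: 15 on 2L, 20 on 2R, 12 on 3L, 22 on 3R, 1 on chromosome 4 (RpS3A) and 14 on X. All 6 silent copies and RpS10a lie on 2R or 3R. The 14 genes on X, present as a single copy in males, had a median of 571 RPKM, against 610 RPKM for the 63 expressed autosomal genes. The closest pair apart from RpS14a and RpS14b was RpL12 (2R, 19947923 to 19949039, plus strand) and RpL39 (2R, 19949374 to 19949952, minus strand), with 334 bases between their ends. Their means were 559 and 671 RPKM.

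Inside 27 of the 78 tested genes, or 34.6%, the annotation places small nucleolar RNA genes, 72 in all, against 0.867% of all tested protein-coding genes. Small nucleolar RNAs guide the modification of ribosomal RNA and are released from the introns of host transcripts. RpS5a held 14 of them and RpS7 held 7. The 27 host genes had a median of 610 RPKM and a median log2 fold change of -0.05, and the 50 expressed genes without such a guide had 604 RPKM and -0.05. The Spearman correlation of mean RPKM with spliced length was 0.05 over the 77 genes, which are not independent replicates. The lengths are those of the later annotation, with the limit given above.

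Ribosomal proteins that carry other symbols in the table gave the same picture. The genes sop, sta and oho23B encode small subunit proteins, Qm encodes the large subunit protein that completes the particle late in assembly, and Rack1 encodes a scaffold on the small subunit. None of these 5 genes was called, and none had an unadjusted p under 0.05 (limma). Their median log2 fold change was -0.06, and sop had 639, 621 and 654 RPKM in PQ, against 633, 812 and 624 RPKM in sucrose.

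The wider machinery of translation and ribosome production had no called gene in any list, where 0.0812% of all genes tested were called. Of 31 initiation factor genes and 12 elongation and termination genes, none had an unadjusted p under 0.05, with median log2 fold changes of -0.06 and -0.01. Among the initiation factors, eIF2gamma was read under the symbol Su(var)3-9. The 34 genes listed for ribosome biogenesis include Rrp1, a symbol that in flies belongs to a DNA repair enzyme. Of the 34, 1 was higher at an unadjusted p under 0.05 (limma), the nucleolar gene mbm. It had 3.36, 3.38 and 3.30 RPKM in PQ, against 2.67, 2.74 and 2.90 RPKM in sucrose (limma adjusted p = 0.951). Over all tested genes 2.21% were higher at that level, so a single gene of 34 is near the background. The groups of mbm did not overlap, but its levels were close to the floor. RNA polymerase I (12 genes, median -0.04) and the Myc and TOR pathways (21 genes, median 0.03) had none. The 72 mitochondrial ribosomal protein genes, encoded in the nucleus for a separate ribosome, had a median of 25.5 RPKM. Their median log2 fold change was -0.13, with 68 negative (57.8% of all tested genes were) and 0 at an unadjusted p under 0.05. Their median deviation in sucrose replicate 2 was 0.24, as for the cytosolic set the highest of the 6 libraries. In sucrose replicates 1 and 3 it was -0.14 and 0.08, against -0.17, -0.07 and 0.05 in PQ replicates 1, 2 and 3. Unlike in the cytosolic set, sucrose replicate 3 was thus above the gene means.

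The largest log2 fold change in these translation lists and the list drawn up for the response to ribosomal protein loss was that of Xrp1. It encodes a transcription factor that in flies responds to ribosomal protein loss and other stress, and Irbp18 (CG6272) encodes its dimerisation partner. Xrp1 had 175, 181 and 174 RPKM in PQ, against 148, 129 and 129 RPKM in sucrose. All PQ libraries lay above all sucrose libraries, but the gene did not pass the test (log2 fold change 0.39, SE 0.07, limma adjusted p = 0.365). Irbp18 had 30.3, 37.6 and 35.03 RPKM in PQ and 32.3, 39.5 and 35.9 RPKM in sucrose, with overlapping groups. The list also held Irbp, a different gene from Irbp18, which encodes a subunit of the DNA end-binding Ku complex. Irbp had 5.06, 5.05 and 5.24 RPKM in PQ and 4.23, 3.89 and 3.59 RPKM in sucrose. Its groups did not overlap either, and it was not called (log2 fold change 0.35, limma adjusted p = 0.833).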

How the data were processed

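Heads of PQ-fed and sucrose-fed males were profiled by mRNA sequencing in 6 libraries, 3 per group. The authors mapped paired 50-base reads to dm3 with TopHat2 2.0, and their notes name trimmed means of M-values for normalisation. The RPKM values were used as deposited by the authors. A second deposited table holds the authors' own fold changes and p-values for selected genes and was not used. The methods describe 4 replicates for each feeding, of which the 3 per group with sample labels and table columns were analysed here. Groups and replicate numbers came from the sample labels.

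RPKM was transformed to log2(RPKM + 0.5) without further scaling. Genes at the floor of 1 in all libraries were left out, and the remaining 9853 were compared with limma (version 3.58.1, R 4.3.3), allowing the prior variance to follow mean level, with Benjamini-Hochberg adjustment over all of them and a threshold of 0.05. The procedure was also run on simulated data with independent noise for each gene. Such data lack the library differences shared between genes here, so no conclusion is drawn from that run. A difference between 3 and 3 libraries cannot go below 0.1 in an exact permutation test, so none was used. Depth per library was not in the table and the read totals of the study's supplement were not used, so the precision given is the spread between libraries. Coordinates are those of the deposited table (dm3). Spliced lengths, exons and small nucleolar RNAs came from the canonical transcripts of Ensembl release 115 (BDGP6). They were matched by gene identifier or symbol for 84 of 84 genes, and no coordinates were carried between builds. For some genes the spliced length exceeds the dm3 gene span, so it need not be the length used for the RPKM.

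The members and gene lists were chosen with earlier results of these data known. Named genes were those past the test, those with the 5 largest fold changes and smallest p-values in each direction, the 5 highest and 5 lowest in level, paralog pairs, a fixed set of genes with special roles and, per other list, up to 3 with the smallest p. Alternatives numbered 15 from the outset and 3 chosen after seeing the data.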

Additional observations from a re-analysis of the deposited data

How the results depend on the processing

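No ribosomal protein gene was called under any of the 15 planned and 3 added alternatives, and none of 1402 recomputed single-gene differences passed the test. The count of 8 called genes over the whole table was less stable. Added alternatives gave 11 after adjustment for spliced length and 10 after centring on the median ribosomal protein gene. The count was 9 with a pseudocount of 1, with trimmed means and with centring on the median tested gene. Among genes with a mean of at least 5 RPKM it was 7. It was 5 with a pseudocount of 0.1, 1 with no filter on floor values (lower in PQ, whereas the 8 were all higher, so none of them remained), 0 with quantile normalization, 0 without the trend, and between 0 and 5 when single libraries were left out (5 without PQ replicate 1, 0 without any other). Without both libraries numbered 2, an alternative chosen after seeing the data, it was 0. The cause was not tested. Whether the replicate numbers pair the libraries could not be settled. Deviations from the group means correlated at r = 0.41, 0.06 and 0.05 for the same number. Not every library correlated best with its own number, but centring within groups of 3 libraries constrains these values. With the replicate block 4 genes of the table and 0 ribosomal protein genes were called. The median log2 fold change of the ribosomal protein genes, -0.05, was -0.03 after rescaling by trimmed means and -0.01 after quantile normalization. With quantile normalization, 48 of the 78 genes were negative and 30 were positive. When single libraries were left out, the median lay between -0.10 and 0.03, positive only without sucrose replicate 2. It was 0.00 after adjustment for spliced length and 0.05 without both libraries numbered 2, which were added alternatives. Their share of the summed RPKM, PQ minus sucrose, was -0.17 percentage points and lay between -0.43 and 0.17 when single libraries were left out. With 3 libraries per group and no read counts, differences smaller than the intervals given were not detectable.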
